A study of Homo sapiens with 12 samples.

Results

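β-catenin, the TCF/LEF factors and 5 regulators of the Wnt pathway were followed in 2 RNA-Seq experiments on prostate cancer cells. The set was chosen by gene symbol and holds 10 genes, CTNNB1, TCF7, TCF7L1, TCF7L2, LEF1, AXIN1, AXIN2, APC, RNF43 and ZNRF3, and all 10 were listed among the 28008 genes of the silencing experiment and among the 25435 genes of the overexpression experiment. In the silencing experiment, LNCaP-ER/tet-MUC1shRNA cells, an enzalutamide-resistant line selected from LNCaP that carries a doxycycline-inducible shRNA against MUC1 in a puromycin-selected pLKO-tet vector, were treated for 7 days with 0.1% DMSO as the vehicle (3 libraries) or with 500 ng/ml DOX (3 libraries). The vehicle cells thus carry the same uninduced construct, and no library tested DOX on cells without it, so an effect of DOX itself cannot be told apart from that of the shRNA. In the overexpression experiment, LNCaP cells (3 libraries) served as the control of LNCaP/MUC1-C OE cells (3 libraries), which express MUC1-C from an introduced construct. The labels call the LNCaP controls wild-type whereas the columns of the count table call them vector, and the labels of the overexpression samples put the prefix sh before MUC1-C. LNCaP is a prostate cancer line from a lymph node metastasis, and MUC1-C is the transmembrane subunit of mucin 1. The labels describe triplicate cultures, so p-values measure the spread between cultures of a line. LNCaP/MUC1-C OE is a line made apart from its control. An effect of MUC1-C therefore cannot be told apart from other differences between these lines, and the spread between separately made lines was not measured.

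Canonical Wnt signalling turns on the stability of β-catenin. Without a ligand, a destruction complex built on the scaffolds AXIN and APC holds β-catenin for phosphorylation and degradation. Binding of a Wnt ligand to Frizzled and LRP receptors blocks that complex, and β-catenin then enters the nucleus, binds TCF/LEF proteins on DNA and turns them from repressors into activators. RNF43 and ZNRF3 are membrane E3 ubiquitin ligases that remove Frizzled receptors from the cell surface, and AXIN2, RNF43, ZNRF3, LEF1 and TCF7 are themselves Wnt target genes in many tissues. β-catenin also links cadherins to the cytoskeleton. These libraries measure RNA only, and β-catenin activity is set largely by protein stability.

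MUC1 was the check of the labels. In the libraries labelled LNCaP-ER vehicle it had 26, 10 and 13 counts, and in those labelled DOX it had 3, 42 and 8 counts. DOX replicates 1 and 3 were below every vehicle library and DOX replicate 2 was above them all, so that its MUC1 count goes against its label. The same library listed 11.2% of genes at 0 counts, whereas the other 5 libraries listed 27.95% to 38.1%. It held counts of genes that were at 0 in the other 5, such as LGR5 (21), SOST (17) and FZD10 (17). Whether its MUC1 count has the same source as these low counts was not tested. Calls and list counts of the silencing experiment are therefore also given without the library labelled DOX replicate 2. In the overexpression experiment MUC1 had 30, 25 and 31 counts in the LNCaP libraries and 9168, 9959 and 12622 in the MUC1-C OE libraries. The silencing libraries held 28045894 to 45807989 counts each, and the overexpression libraries 13806856 to 19208944.

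The libraries were also compared with markers of the luminal prostate cell, as CPM over the 23435 genes shared by both count tables. The 8 luminal markers summed to 4255 to 4492 CPM in the LNCaP-ER vehicle libraries and to 354 to 366 CPM in the LNCaP libraries. FOLH1, the gene of prostate-specific membrane antigen, ran from 1600 to 1950 CPM in LNCaP-ER vehicle and from 7.68 to 9.73 CPM in LNCaP. In the MUC1-C OE libraries KLK2, KLK3, which encodes prostate-specific antigen, and FOLH1 had 0 counts in all 3 libraries. CDH2, the neural cadherin, ran from 123 to 128 CPM in LNCaP and had 0 counts in every LNCaP-ER vehicle library. The libraries labelled LNCaP thus held counts of all 8 luminal markers, but 7 of the 8, all except KRT8, were lower in every LNCaP library than in every LNCaP-ER vehicle library. The tables were made separately and from different lines, so these differences between experiments were not tested. Differences between the lines cannot be told apart here from differences between the tables. Whether the libraries labelled LNCaP represent the parent of LNCaP-ER was not tested.

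Promoter sequences are shown for TCF7L2, the only member past the test in both experiments, for RNF43, which had the largest change of the members in the overexpression experiment, and for the start of TCF7 that carries a TCF/LEF core. Each runs 5′ to 3′ on the strand of the gene, from 250 bases before to 50 bases after a RefSeq transcription start of GRCh38.p14. Capitals mark the TCF/LEF core, searched on both strands as CTTTGAA or CTTTGAT, or as CTTTGTA or CTTTGTT.
TCF7L2, first start, chr10:112949997-112950296, plus strand: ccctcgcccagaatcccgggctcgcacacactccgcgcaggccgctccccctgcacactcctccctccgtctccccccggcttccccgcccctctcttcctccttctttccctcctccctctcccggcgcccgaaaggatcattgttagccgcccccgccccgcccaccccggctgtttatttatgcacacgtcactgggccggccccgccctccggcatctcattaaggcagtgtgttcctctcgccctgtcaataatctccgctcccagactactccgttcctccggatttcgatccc
TCF7L2, downstream start, chr10:113126383-113126682, plus strand: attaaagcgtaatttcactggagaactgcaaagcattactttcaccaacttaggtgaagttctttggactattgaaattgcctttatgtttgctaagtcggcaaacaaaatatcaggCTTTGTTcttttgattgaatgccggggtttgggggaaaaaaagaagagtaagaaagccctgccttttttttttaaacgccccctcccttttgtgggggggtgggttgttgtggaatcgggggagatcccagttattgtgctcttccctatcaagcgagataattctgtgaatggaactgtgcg
RNF43, first start, chr17:58417485-58417784, minus strand: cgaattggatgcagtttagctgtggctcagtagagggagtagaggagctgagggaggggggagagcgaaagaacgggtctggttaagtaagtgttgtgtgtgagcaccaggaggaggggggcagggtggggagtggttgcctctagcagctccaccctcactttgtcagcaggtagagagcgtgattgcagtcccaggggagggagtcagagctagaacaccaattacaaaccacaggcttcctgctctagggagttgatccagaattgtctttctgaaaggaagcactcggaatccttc
TCF7, downstream start, chr5:134123368-134123667, plus strand: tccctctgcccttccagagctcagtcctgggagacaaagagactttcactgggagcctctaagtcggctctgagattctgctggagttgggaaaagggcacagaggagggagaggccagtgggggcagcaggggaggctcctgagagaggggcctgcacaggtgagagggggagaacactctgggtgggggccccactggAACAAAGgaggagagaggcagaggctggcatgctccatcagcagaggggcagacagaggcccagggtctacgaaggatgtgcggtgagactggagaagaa
RefSeq entries were found for 8 of the 10 members, with 13 starts in all. A TCF/LEF core stood in 2 of these 13 windows, and in 13.8% of the 35116 promoter windows of the table. In TCF7L2 the core began 133 bases before a start inside the gene, and in TCF7 it lay on the opposite strand, where capitals show its complement, 50 bases before the start. Neither the first start of TCF7L2 nor that of RNF43 held these letters. The E-box CACGTG, a site bound by MYC among other factors, stood in 1 of the 13 windows, at the second start of APC, and in 7.26% of all windows. These matches describe the letters of the window only.

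The level of each member per transcript length was read from the TPM values deposited for the silencing experiment. In the LNCaP-ER vehicle libraries, CTNNB1 was the most abundant at 40.7 ± 7.89 TPM (SD, n = 3), followed by APC at 5.71 ± 0.849 TPM. AXIN1 at 4.24 ± 0.767 TPM overlapped TCF7L2 at 3.91 ± 0.574 TPM, and TCF7L2 overlapped ZNRF3 at 2.996 ± 0.792 TPM. RNF43 at 1.19 ± 0.445 TPM overlapped AXIN2 at 0.962 ± 0.197 TPM. The other TCF/LEF genes were at the bottom of the order, with TCF7 at 0.150 ± 0.0605 TPM overlapping LEF1 at 0.128 ± 0.0114 TPM, and TCF7L1 last at 0.0406 ± 0.0328 TPM. RN7SK, a noncoding RNA of RNA polymerase III, held 35.2% to 37.7% of all TPM in the vehicle libraries and 24.6% to 31.4% in the DOX libraries. TPM values are therefore used here mainly for the order of genes within a library.

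The 4 TCF/LEF genes encode DNA-binding partners of β-catenin, and the make-up of their summed RNA per length differed between the experiments. In LNCaP-ER vehicle libraries TCF7L2 made up 92.4 ± 1.497% of the family, TCF7 3.48 ± 1.03%, LEF1 3.10 ± 0.649% and TCF7L1 1.03 ± 0.904% (SD, n = 3). In the libraries labelled DOX, TCF7L2 held 84.7 ± 7.34% and LEF1 8.83 ± 2.40%. The LEF1 share was 2.35% to 3.55% in the vehicle libraries and 6.19% to 10.9% in the DOX libraries, and these ranges did not overlap. The highest LEF1 share was that of DOX replicate 2, and DOX replicates 1 and 3 held 6.19% and 9.42%. The TCF7L2 share ran from 76.3% to 89.9% in the DOX libraries, all below the lowest vehicle share of 90.7%, and its lowest value was that of DOX replicate 2. In the overexpression experiment, for which no TPM values were used, shares were estimated from counts with the length of each gene implied by the silencing tables. There LEF1 led with 36.9 ± 1.93% in LNCaP and 42.1 ± 1.30% in LNCaP/MUC1-C OE, followed by TCF7L2 with 30.1 ± 0.553% and 32.6 ± 0.351%. TCF7 held 23.8 ± 2.02% and 17.9 ± 1.35%, and TCF7L1 held 9.11 ± 0.266% and 7.44 ± 0.530%. The shares were not tested, since the 4 of a library add up to a fixed total.

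**Figure D1:**
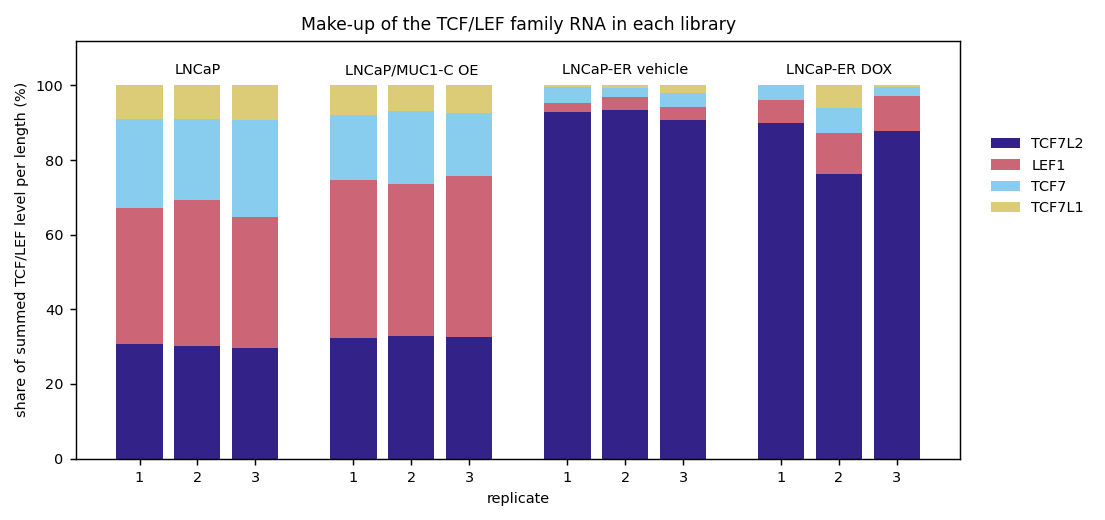
Each bar is 1 library and shows the percent of the summed TCF/LEF RNA per length that each of the 4 genes held, from TPM in LNCaP-ER and estimated from counts in LNCaP. TCF7L2 fills 76.3% to 93.5% of the LNCaP-ER bars and 29.5% to 32.9% of the LNCaP and LNCaP/MUC1-C OE bars.

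Over the genes shared by both tables, 3 of the TCF/LEF genes differed in level more than the other members. LEF1 averaged 52.1 ± 6.43 CPM in LNCaP and 0.873 ± 0.170 CPM in LNCaP-ER vehicle, a ratio of 59.7. TCF7 averaged 35.3 ± 1.01 CPM against 1.05 ± 0.350 CPM, and TCF7L1 8.78 ± 0.380 CPM against 0.200 ± 0.180 CPM. TCF7L2 was closer, at 51.3 ± 4.07 CPM against 31.6 ± 1.29 CPM. CTNNB1 averaged 802 ± 13.2 CPM in LNCaP and 254 ± 22.9 CPM in LNCaP-ER vehicle, and APC 126 ± 2.22 CPM against 111 ± 3.54 CPM. Each of the 10 members was higher in every LNCaP library than in every LNCaP-ER vehicle library except RNF43, for which the highest vehicle library, 14.63 CPM, passed the lowest LNCaP library, 14.62 CPM. These levels come from separate tables and lines and were not tested.

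The first comparison asks how the members differed between LNCaP-ER cells given DOX, meant to induce the shRNA against MUC1, and vehicle cells. MUC1 RNA itself did not pass the test in this comparison. TCF7L2 was lower in the libraries labelled DOX, and no other member passed the test. The RNA of β-catenin itself, of AXIN2 and of ZNRF3 overlapped between the groups. By the quasi-likelihood F-test of edgeR, adjusted by Benjamini-Hochberg, 1 of the 9 members tested had an adjusted p under 0.05, against 27.3% of all 14683 genes tested, and 4 of 9 had an unadjusted p under 0.05, against 40.2% of all genes. TCF7L1 was removed by the filter on low counts. Values below are TMM-scaled CPM, that is counts relative to the library total.

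TCF7L2, the main TCF/LEF gene of these cells, had 30.5, 29.5 and 30.7 CPM in the vehicle libraries and 22.3, 24.6 and 21.9 CPM in the DOX libraries. All 3 DOX libraries were below all 3 vehicle libraries. The log2 fold change was -0.40 (SE 0.10), a decrease of 24.2 percent, with an adjusted p of 0.0217 by edgeR. Without 1 library the log2 fold change stayed between -0.43 and -0.37, but the adjusted p ran from 0.0149 to 0.0892 and the call was lost without vehicle replicate 2, vehicle replicate 3, DOX replicate 1 or DOX replicate 3. On the log2(TPM + 1) scale TCF7L2 changed by 0.13, where the median over all genes was itself shifted by 0.45, a relative log2 change of -0.32. On the same scale without a filter on low values the relative change was -0.052. TCF7L2 encodes the protein often called TCF4, whereas the gene TCF4 encodes an unrelated bHLH factor. That gene was low in these cells, with a log2 fold change of -0.85 (SE 0.43) and an adjusted p of 0.178 by edgeR. Without DOX replicate 2 it was called, at a log2 fold change of -1.39 (adjusted p = 0.0113).

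LEF1, a lymphoid-enhancer factor of the same family, had 24, 26 and 28 counts in the vehicle libraries and 42, 86 and 90 counts in the DOX libraries. In CPM these were 0.638, 0.884 and 0.995 against 1.27, 2.90 and 1.94. The groups did not overlap, and the log2 fold change was 1.28 (SE 0.43) with an adjusted p of 0.0564 by edgeR, which missed the threshold. Without DOX replicate 2 the log2 fold change was 0.99 (adjusted p = 0.0807). TCF7 had 47, 19 and 31 counts against 28, 56 and 24, with overlapping groups and a log2 fold change of 0.10 (95% interval -1.19 to 1.39), and of -0.53 (adjusted p = 0.418) without DOX replicate 2. TCF7L1, at 2, 4 and 11 counts in the vehicle libraries, had 0, 33 and 2 counts in the DOX libraries. All but 2 of the 35 TCF7L1 counts of the DOX group thus came from DOX replicate 2, the library that also held most MUC1 counts of its group.

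CTNNB1, the gene of β-catenin, had 258, 227 and 244 CPM in the vehicle libraries and 294, 238 and 304 CPM in the DOX libraries. The groups overlapped through DOX replicate 2, and the log2 fold change of 0.20 (95% interval -0.061 to 0.46) had an adjusted p of 0.230 by edgeR. The interval allows a rise of the size seen in APC.

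Among the scaffolds of the destruction complex, APC had 105, 109 and 104 CPM in the vehicle libraries and 134, 111 and 143 CPM in the DOX libraries. The groups did not overlap, although DOX replicate 2 was close to the vehicle libraries, and the log2 fold change of 0.28 (SE 0.11) had an adjusted p of 0.0807. AXIN1 had 23.1, 26.5 and 21.7 CPM against 19.98, 20.5 and 19.1 CPM, without overlap, and a log2 fold change of -0.26 (SE 0.12, adjusted p = 0.139). AXIN2, the feedback scaffold that rises with β-catenin activity in many cells, had 5.87, 7.48 and 5.61 CPM against 5.58, 6.77 and 5.89 CPM. Its groups overlapped and its log2 fold change was -0.058 (95% interval -0.49 to 0.38), an interval that leaves room for changes in both directions.

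Of the Frizzled ligases, RNF43 had 13.6, 9.49 and 9.20 CPM in the vehicle libraries and 6.22, 8.89 and 5.28 CPM in the DOX libraries. Every DOX library was below every vehicle library, and the log2 fold change of -0.67 (SE 0.24) had an adjusted p of 0.0674. ZNRF3 had 36.5, 29.2 and 30.4 CPM against 33.5, 26.4 and 28.1 CPM, with overlap and a log2 fold change of -0.13 (95% interval -0.43 to 0.18).

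In all, 5 of the 9 members tested did not overlap between the groups, LEF1 and APC higher and TCF7L2, AXIN1 and RNF43 lower with DOX, against 44.3% of all genes. By direction these were 2 higher, against 21.2% of all genes, and 3 lower, against 23% of all genes. Without the library labelled DOX replicate 2, 4 of the 9 members were called, APC and CTNNB1 higher and RNF43 and TCF7L2 lower, against 35.3% of all 14848 genes then tested. The adjusted p was then 0.0186 for CTNNB1, 0.00567 for APC and 0.0138 for RNF43 by edgeR. AXIN1 (-0.25), AXIN2 (-0.11) and ZNRF3 (-0.025) did not pass the threshold, at adjusted p of 0.167, 0.716 and 0.903.

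**Figure D2:**
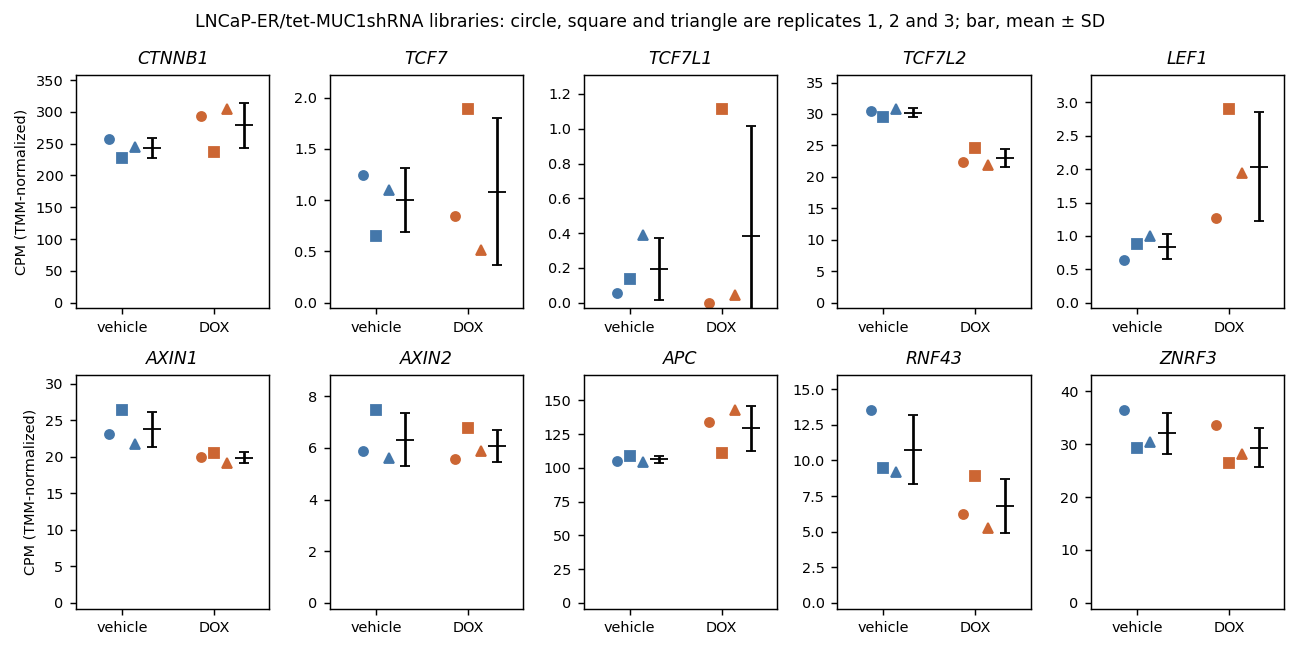
Each panel shows 1 member in CPM (linear axis that includes 0) in the 3 LNCaP-ER vehicle and the 3 LNCaP-ER DOX libraries, with a bar for the mean ± SD. TCF7L2 lies at 29.5 to 30.7 CPM with vehicle and at 21.9 to 24.6 CPM with DOX, while CTNNB1, APC and RNF43 in DOX replicate 2 (square) lie closest to the vehicle libraries or among them. The SD bar of TCF7L1 extends below the axis.

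The second comparison asks what happened to the members in LNCaP cells made to overexpress MUC1-C. RNF43, LEF1, TCF7L2 and AXIN2 were higher in the MUC1-C OE libraries and TCF7 was lower. The changes were between 14.8 percent for AXIN2 and 59.7 percent for RNF43 in the upward direction, and CTNNB1 did not pass the test. By the same edgeR test, 5 of the 10 members were called, against 67.3% of all 13836 genes tested, and 6 had an unadjusted p under 0.05, against 69.9%. The groups did not overlap for 5 members, APC, AXIN2, RNF43 and TCF7L2 higher and TCF7 lower, against 70.3% of all genes (34.4% higher and 35.9% lower). The share of members called was thus no larger than that of genes in general. In the upward direction 4 of 10 were called, against 33.2% of all genes, and in the downward direction 1 of 10, against 34.1%.

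RNF43 had 13.5, 16.05 and 13.5 CPM in the LNCaP libraries and 23.1, 21.6 and 23.8 CPM in the MUC1-C OE libraries. The groups lay far apart, and the log2 fold change was 0.68 (SE 0.091, adjusted p = 3.85e-06 by edgeR). ZNRF3, its paralogue, had 52.1, 53.6 and 54.6 CPM against 43.7, 52.3 and 48.9 CPM, with a log2 fold change of -0.15 (SE 0.068, adjusted p = 0.0629) that missed the threshold. The 2 ligases thus had opposite signs, and the difference between them was not tested.

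Of the TCF/LEF genes, TCF7L2 had 46.4, 51.4 and 43.8 CPM in LNCaP and 57.2, 51.7 and 56.1 CPM in LNCaP/MUC1-C OE, a log2 fold change of 0.22 (SE 0.069, adjusted p = 0.00869). The groups were separated by a narrow gap, between LNCaP replicate 2 and LNCaP/MUC1-C OE replicate 2, and without LNCaP replicate 3 the call was lost (adjusted p = 0.0662). LEF1 had 45.8, 54.7 and 43.3 CPM against 62.2, 52.9 and 61.6 CPM. Its groups overlapped, with a log2 fold change of 0.30 (SE 0.086, adjusted p = 0.00645), and the call held without any 1 library. TCF7 had 31.6, 32.3 and 33.5 CPM against 26.9, 26.6 and 25.4 CPM and fell by 19.1 percent (log2 fold change -0.30, SE 0.069, adjusted p = 8.80e-04). TCF7L1 had 7.83, 8.499 and 7.90 CPM against 8.05, 6.20 and 7.17 CPM, with overlap and a log2 fold change of -0.17 (95% interval -0.44 to 0.093). The gene TCF4 was at 58.0 to 61.3 CPM in LNCaP and at 58.2 to 61.8 CPM in LNCaP/MUC1-C OE, with a log2 fold change of 0.025 (adjusted p = 0.708).

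CTNNB1 had 746, 726 and 742 CPM in LNCaP and 682, 756 and 725 CPM in LNCaP/MUC1-C OE. The log2 fold change was -0.033 (95% interval -0.13 to 0.063), an interval with both directions in it. AXIN2 had 18.2, 18.6 and 16.2 CPM against 19.6, 19.8 and 21.3 CPM, without overlap, and a log2 fold change of 0.20 (SE 0.085) at an adjusted p of 0.0483, just under the threshold. That call was lost without LNCaP replicate 1, LNCaP replicate 3, LNCaP/MUC1-C OE replicate 2 or LNCaP/MUC1-C OE replicate 3. It was also lost with DESeq2 (adjusted p = 0.127), with RLE size factors (0.0502) and with at least 10 counts in every library (0.0881). AXIN1 had 38.4, 41.4 and 39.3 CPM against 37.5, 42.4 and 44.2 CPM and APC 118, 116 and 114 CPM against 128, 122 and 121 CPM. Neither passed the test, at log2 fold changes of 0.060 (95% interval -0.090 to 0.21) and 0.090 (95% interval -0.011 to 0.19).

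These directions depend on the scaling. The MUC1-C OE libraries had lower TMM factors, and with library size alone the median gene was shifted by -0.16 on the log2 scale. Under that scaling 5 members were called, RNF43 higher and CTNNB1, TCF7, TCF7L1 and ZNRF3 lower. RNF43 and TCF7 were called in the same direction under both scalings.

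**Figure D3:**
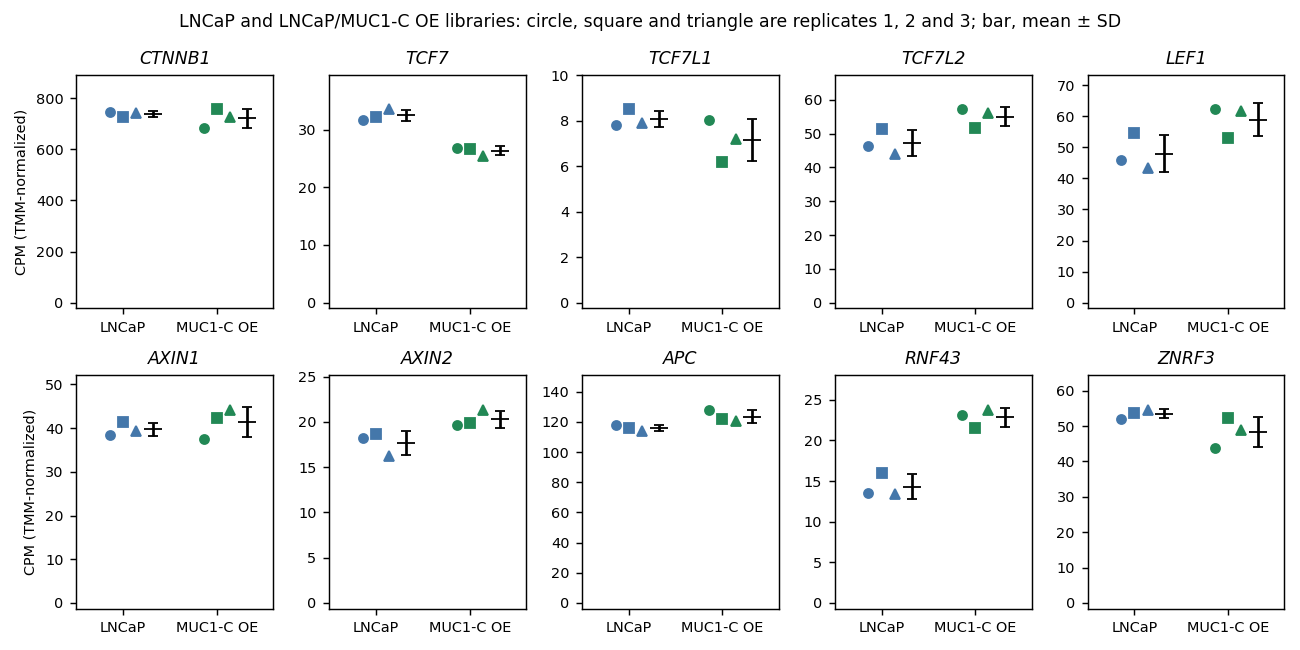
Each panel shows 1 member in CPM (linear axis that includes 0) in the 3 LNCaP and the 3 MUC1-C OE libraries, with a bar for the mean ± SD. RNF43 lies at 13.5 to 16.05 CPM in LNCaP and at 21.6 to 23.8 CPM with MUC1-C, and CTNNB1 lies between 682 and 756 CPM in all 6 libraries.

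The 2 experiments share no library, and their folds stand side by side without a test of the difference. TCF7L2 was the 1 member called in both, lower with DOX (-0.40) and higher with MUC1-C (0.22). Of the 11682 genes tested in both, 2489 were called in both, and 1701 of these had opposite signs. A gene called in both with opposite signs was thus common. RNF43 had -0.67 with DOX, which missed the threshold, and 0.68 with MUC1-C. LEF1 had positive values in both, 1.28 and 0.30, and ZNRF3 negative values in both, -0.13 and -0.15. Of the 9 members tested in both experiments 6 had opposite signs, that is 66.7%, against 57.8% of the 11682 genes tested in both, a share near that of genes in general.

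**Figure D4:**
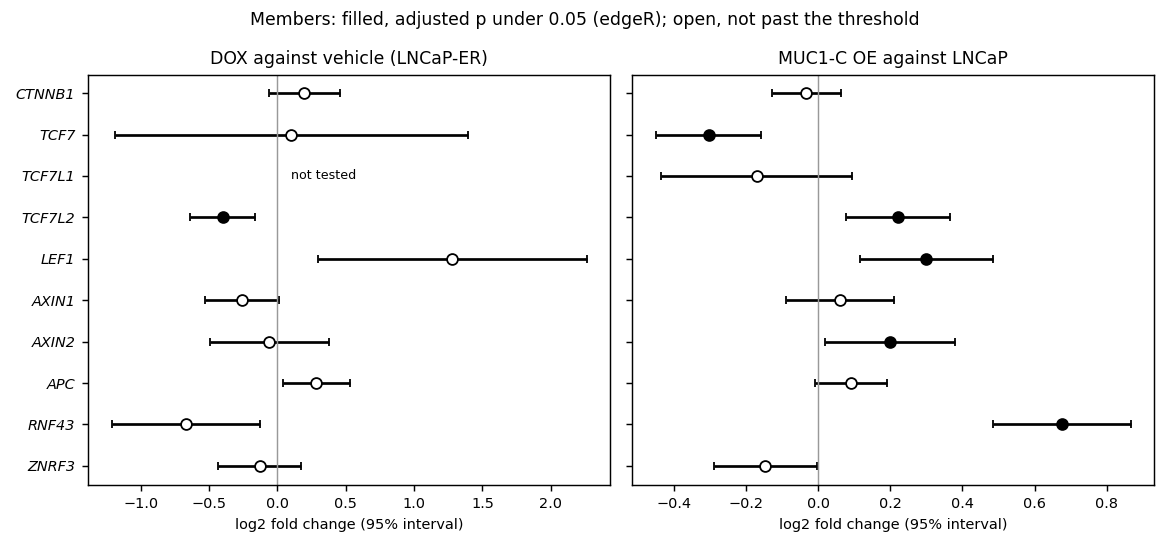
Points are log2 fold changes of the members with 95% intervals, for DOX against vehicle in LNCaP-ER on the left and for MUC1-C OE against LNCaP on the right (the axes differ in range). Filled points had an adjusted p under 0.05 by edgeR, TCF7L2 on the left and RNF43, LEF1, TCF7L2, AXIN2 and TCF7 on the right.

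The rest of the pathway was described with 7 lists of 113 distinct genes. In the silencing experiment 23 of the 78 list genes tested were called, 13 higher and 10 lower with DOX, and 36 of 78 without the library labelled DOX replicate 2. With MUC1-C overexpression 69 of 89 were called, 31 higher and 38 lower. Values in the next paragraphs are log2 fold changes with adjusted p from edgeR, read against 27.3% and 67.3% of all genes called. By direction, 12.8% of all genes were called higher and 14.5% lower with DOX, and 33.2% higher and 34.1% lower with MUC1-C. Counts without DOX replicate 2 are read against 35.3% of all 14848 genes then tested, with 2679 genes called higher and 2564 lower.

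Of the Wnt and R-spondin ligands and the genes that make Wnts fit for secretion, 11 of 25 were tested with DOX, of which 3 were higher and 2 lower (3 and 4 without DOX replicate 2). WNT7B rose from 13.3, 10.1 and 9.84 CPM to 41.7, 27.96 and 43.8 CPM (1.77, adjusted p = 8.10e-04), and WNT9A from 2.34, 1.16 and 0.995 CPM to 5.21, 4.72 and 5.80 CPM (1.79, adjusted p = 0.00652). Both are Wnt ligands, and in both every DOX library was above every vehicle library. With MUC1-C overexpression 14 were tested, 3 higher and 6 lower. WNT7B fell there, from 2.07, 2.53 and 2.75 CPM to 0.271, 0.382 and 0.598 CPM (-2.50, adjusted p = 1.41e-06). RSPO3, an R-spondin that protects Frizzled from RNF43 and ZNRF3, went from 31, 32 and 24 counts to 2, 1 and 4 counts.

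Among the receptors 15 of 18 were tested with DOX, 0 higher and 2 lower, and without DOX replicate 2 it was 2 higher and 4 lower. FZD6, a Frizzled receptor, fell from 104, 122 and 129 CPM to 48.3, 71.7 and 38.4 CPM (-1.17, adjusted p = 0.00480). LRP6, the Frizzled co-receptor, fell from 71.3, 75.6 and 72.7 CPM to 55.2, 60.5 and 51.6 CPM (-0.39, adjusted p = 0.0158), a call that was lost without vehicle replicate 2, vehicle replicate 3 or DOX replicate 3. With MUC1-C overexpression 6 of 17 were higher and 6 lower. FZD6 fell there too, from 51.2, 53.7 and 53.1 CPM to 29.02, 28.99 and 26.4 CPM (-0.91, adjusted p = 1.75e-09), while FZD8 rose from 7.39, 7.60 and 7.84 CPM to 13.2, 14.2 and 16.4 CPM (0.94, adjusted p = 6.39e-07).

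The inhibitors are secreted proteins that bind or modify Wnts or bind LRP receptors, and KREMEN1 and KREMEN2, transmembrane receptors for Dickkopf proteins. In LNCaP-ER cells the 13 secreted inhibitors did not pass the filter on low counts, and KREMEN1 and KREMEN2, the 2 that did, were not called with all libraries or without DOX replicate 2. With MUC1-C overexpression 7 were tested, and 5 were lower (SFRP1, DKK2, DKK3, KREMEN1 and KREMEN2) and 0 higher. SFRP1, a secreted Frizzled-related decoy, fell from 27.4, 27.8 and 28.05 CPM to 1.62, 1.99 and 2.87 CPM (-3.66, adjusted p = 2.39e-13). DKK3 of the Dickkopf family fell from 5.27, 6.60 and 4.36 CPM to 0.879, 1.30 and 1.97 CPM (-1.93, adjusted p = 2.00e-06).

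Of the cytoplasmic genes, which include Dishevelled and the kinases of the destruction complex, 1 of 16 was called with DOX, higher, and without DOX replicate 2 it was 4 higher and 0 lower. The 1 gene was PPP2R1A, a scaffold subunit of protein phosphatase 2A, which went from 153, 164 and 155 CPM to 197, 179 and 228 CPM (0.35, adjusted p = 0.0365) and kept its call only without DOX replicate 2 when single libraries were left out. With MUC1-C overexpression 7 of 17 were higher and 7 lower. The Dishevelled genes went apart, with DVL1 up from 33.8, 32.5 and 34.4 CPM to 55.5, 59.7 and 59.5 CPM (0.79, adjusted p = 4.83e-09) and DVL3 down from 136, 144 and 132 CPM to 77.0, 80.1 and 85.5 CPM (-0.76, adjusted p = 1.38e-09).

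The nuclear cofactors of β-catenin and the TCF/LEF factors had 8 of 17 genes called with DOX, 4 in each direction (4 higher and 5 lower without DOX replicate 2). TBL1XR1, which takes part in the exchange of corepressors for coactivators and can bind β-catenin, fell from 977, 1017 and 1072 CPM to 378, 374 and 350 CPM (-1.48, adjusted p = 1.14e-04). CTBP1, a corepressor, fell from 179, 167 and 163 CPM to 61.1, 72.5 and 64.9 CPM (-1.36, adjusted p = 1.48e-04). Both calls held without any 1 library, including DOX replicate 2, whose values lay with those of the other DOX libraries. With MUC1-C overexpression 9 of 17 were higher and 5 lower. BCL9, the adaptor that ties β-catenin to PYGO proteins, rose from 51.9, 54.8 and 52.6 CPM to 88.3, 77.9 and 85.1 CPM (0.66, adjusted p = 2.80e-08). TLE1, a Groucho corepressor that binds TCF/LEF factors, rose from 56.4, 62.6 and 59.7 CPM to 85.0, 83.1 and 88 CPM (0.52, adjusted p = 2.95e-07).

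Genes known as Wnt targets in other tissues did not move in 1 direction. With DOX 3 of 12 tested were higher and 2 lower, and without DOX replicate 2 it was 3 higher and 4 lower. CCND1, the gene of cyclin D1, had 338, 293 and 286 CPM in the vehicle libraries and 462, 365 and 452 CPM in the DOX libraries and rose (0.48, adjusted p = 0.0186), a call lost without vehicle replicate 2, vehicle replicate 3, DOX replicate 1 or DOX replicate 3. MYC, which encodes a transcription factor of growth, had 375, 623 and 622 CPM against 391, 376 and 313 CPM. Its groups overlapped through vehicle replicate 1, and its log2 fold change of -0.59 (adjusted p = 0.0491) lost the call without vehicle replicate 2, vehicle replicate 3, DOX replicate 1, DOX replicate 2 or DOX replicate 3. TNFRSF19 (TROY), a receptor of the tumour necrosis factor family, fell from 257, 261 and 275 CPM to 132, 156 and 109 CPM (-0.999, adjusted p = 0.00134). With MUC1-C overexpression 6 of 14 targets were higher and 5 lower. CCND1 fell from 151, 144 and 146 CPM to 76.4, 92.9 and 87.2 CPM (-0.78, adjusted p = 4.28e-09), JUN, a subunit of AP-1, rose from 83.5, 88.6 and 85.2 CPM to 166, 179 and 195 CPM (1.07, adjusted p = 3.19e-11), and MYC went from 105, 115 and 115 CPM to 130, 121 and 123 CPM (0.16, adjusted p = 0.0117), a call lost without LNCaP replicate 1.

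The cadherins and catenins of adherens junctions, which hold the membrane pool of β-catenin, had 2 of 5 genes higher and 0 lower with DOX (3 and 0 without DOX replicate 2). CTNND1, the gene of p120-catenin, rose from 2.18, 2.59 and 2.38 CPM to 6.43, 5.09 and 7.22 CPM (1.39, adjusted p = 0.00331). Overlapping genes were looked up for the members only, so whether these low counts hold all reads of CTNND1 was not tested. JUP, the gene of plakoglobin, a relative of β-catenin, rose from 332, 304 and 301 CPM to 477, 364 and 498 CPM (0.51, adjusted p = 0.0180), a call lost without vehicle replicate 2, vehicle replicate 3, DOX replicate 1 or DOX replicate 3. With MUC1-C overexpression 4 of 5 were lower and 1 higher. CDH1, the epithelial cadherin, had 460, 436 and 373 counts in LNCaP and 1, 1 and 4 counts in LNCaP/MUC1-C OE, and CDH2 fell from 113, 115 and 117 CPM to 77.9, 77.3 and 72.1 CPM (-0.60, adjusted p = 1.40e-08).

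**Figure D5:**
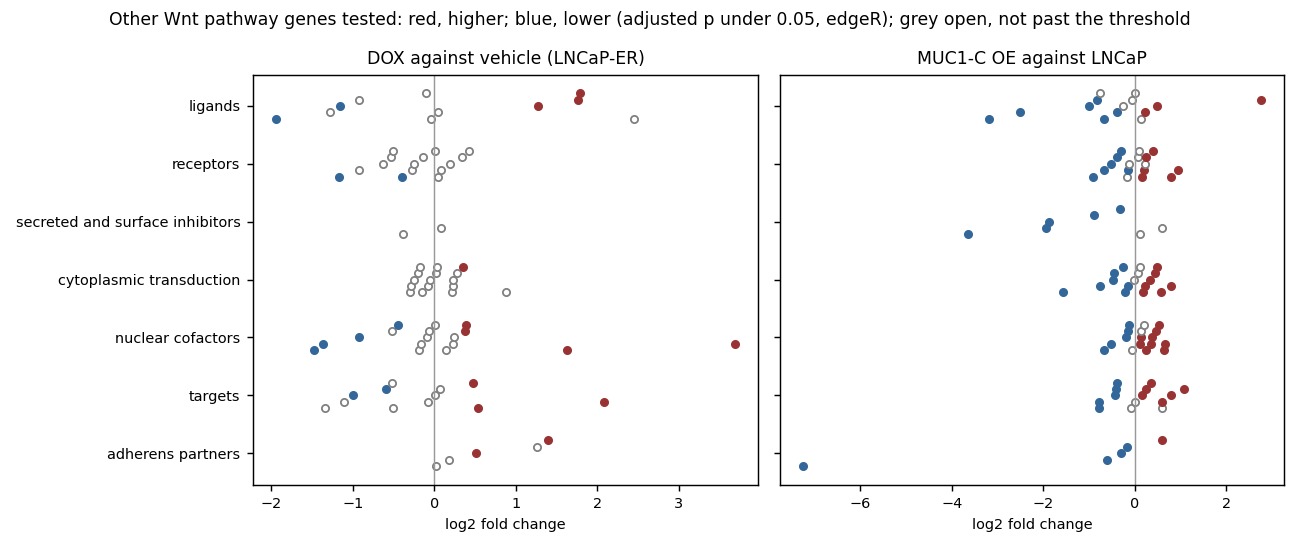
Each point is 1 tested gene of the 7 pathway lists at its fitted log2 fold change, for DOX against vehicle on the left and MUC1-C OE against LNCaP on the right (the axes differ in range). In the right panel all 5 called inhibitors lie below 0, and the farthest point among the adherens partners is CDH1, whose fitted value rests on 1 to 4 counts per LNCaP/MUC1-C OE library.

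Some markers of the cells moved with both comparisons. With DOX 5 of the 8 luminal markers were called higher and 0 lower, against 12.8% and 14.5% of all genes. The marker counts were the same without DOX replicate 2. The sum of these markers was 3944 to 4375 CPM in the vehicle libraries and 4971 to 5342 CPM in the DOX libraries. With MUC1-C overexpression 7 of 8 were called lower and 0 higher, against 34.1% and 33.2% of all genes. Their sum was 326 to 335 CPM in LNCaP and 66.7 to 74.4 CPM in MUC1-C OE. The neuroendocrine markers summed to 4.32 to 7.18 CPM with vehicle and 7.004 to 23.4 CPM with DOX, ranges that overlap. Only 3 of these 8 markers passed the filter on low counts with DOX, and 0 were called. In LNCaP they summed to 123 to 132 CPM and in LNCaP/MUC1-C OE to 79.3 to 91.0 CPM. Of the 6 neuroendocrine markers tested with MUC1-C, 5 were called lower and 1 higher, against the same shares of all genes. The basal markers were at or below 3.07 CPM in every library. The fibroblast markers summed to 54.2 to 59.3 CPM in LNCaP and 41.4 to 45.9 CPM in LNCaP/MUC1-C OE, and to 10.3 to 16.7 CPM with vehicle and 7.19 to 15.9 CPM with DOX. Of the 4 fibroblast markers tested with MUC1-C, 3 were called lower and 1 higher, and 0 of 3 were called with DOX. The haematopoietic markers stayed at or below 3.64 CPM, and the 1 tested with MUC1-C was called lower. The part of these differences in the results for the Wnt genes was not tested. In bulk RNA a smaller number of cells with a gene and less RNA of it in each cell cannot be told apart.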

How the data were processed

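The authors deposited whole-number counts per gene, without normalization, for both experiments, and deposited TPM values, which are scaled by gene length and library, for the silencing experiment only. TPM values were not used for the overexpression experiment. The labels name the TruSeq stranded mRNA kit, and the submitters' processing notes name STAR, DESeq2 and GRCh38 (hg38) without versions. Strand use in counting is not given in the sources used here, so reads of TCF7, LEF1, RNF43 and ZNRF3 cannot be told apart from those of the overlapping VDAC1, LEF1-AS1, TSPOAP1-AS1 and ZNRF3-AS1. Other RefSeq genes also overlap TCF7L1 (such as TCF7L1-IT1), TCF7L2 (such as RPS15AP30 and SNORA87) and APC (such as CBX3P3), with the same limit. In the overexpression table, 12 columns of other cell lines were not used.

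Each experiment was fitted alone with edgeR 4.0.16 (R 4.3.3; TMM, filterByExpr, robust quasi-likelihood test, Benjamini-Hochberg adjustment over all genes tested, threshold 0.05). DESeq2 1.42.0, limma 3.58.1 on log2(TPM + 1), other scalings and filters, a replicate block and leaving out single libraries were the alternatives. TPM genes had to reach 1 TPM in at least 3 libraries, with a pseudocount of 1 or 0.1. The scripts were tested on simulated data. Intervals are 95% intervals of the fit. A relative length per gene was taken from counts divided by TPM, which varied between libraries by 0.0142% (median). Besides the members, MUC1, TCF4, MYC and CCND1, the 2 called genes with the smallest p per list and comparison were named, and other genes named were chosen after their values were seen. TLE5 was listed as AES. A further luminal marker of the list is not reported here. The members and lists were chosen with earlier results of these data known.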

Additional observations from a re-analysis of the deposited data

How the results depend on the processing

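In the silencing experiment 1 member was called, and 2 without a filter on low counts (RNF43 and TCF7L2), 2 with at least 10 counts required in every library (LEF1 and TCF7L2), 2 on log2(TPM + 1) or log2(TPM + 0.1) (APC and CTNNB1) and 0 on log2(TPM + 1) without a filter. With library size alone the 1 call was APC. Leaving out single libraries gave 0 to 4 member calls, 2002 to 5243 calls over all genes (4006 with all libraries) and 12 to 36 calls in the pathway lists (23 with all libraries). The highest of each was without DOX replicate 2, and member calls were 0 without vehicle replicate 2, vehicle replicate 3 or DOX replicate 3. On log2(TPM + 1) without a filter, all genes gave 1589 calls and the lists 10. In the overexpression experiment leaving out single libraries gave 3 to 5 member calls, with 3 without LNCaP replicate 3. The share of calls that were higher was 46.8% with DOX, 59.6% with library size alone and 95.2% on log2(TPM + 1), and with MUC1-C it was 49.4% and, with library size alone, 32.3%.

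On the TPM scales with a pseudocount of 1, filtered or not, the DOX log2 fold changes of TCF7L2 (0.13), AXIN1 (0.25), AXIN2 (0.27), ZNRF3 (0.33) and MYC (0.0031) turned positive, and with a pseudocount of 0.1 they were 0.15, 0.30, 0.47, 0.42 and 0.0029, where the median over all genes was 0.52. AXIN2 was 0.020 with library size alone and -0.14 to 0.071 without single libraries, and TCF7 -0.53 to 0.44. With MUC1-C, AXIN1 was -0.094 and APC -0.064 with library size alone, and CTNNB1 was -0.057 to 0.0052 without single libraries. The causes were not tested beyond these shifts.

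Same-numbered libraries did not deviate together (correlations of 0.0868, -0.00276 and -0.0739 with DOX and of -0.0292, -0.149 and -0.0374 with MUC1-C), which gives no sign of pairing by number. With so few libraries this does not show that the samples were unpaired. With the replicate block 2 members were called with DOX (RNF43 and TCF7L2) and 4 with MUC1-C (AXIN2 lost its call), MYC lost its call with DOX, and TCF7 was -0.056 with DOX. The block gave 4226 calls over all genes with DOX and 8965 with MUC1-C. LEF1, TCF7 and TCF7L1 rest on few counts in LNCaP-ER, which limits what could be detected there.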
